A study of Rattus norvegicus with 12 samples.

Results

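The interaction of caffeine and dextromethorphan was measured in rat liver microRNAs, over all 12 of the 12 small RNA libraries of the series, taken as a 2 by 2 design with 3 libraries in each of 4 groups. The animals were male Sprague-Dawley rats, an outbred stock, 7 weeks old at the start, dosed by mouth for 5 days, with 5 rats per group. Control rats were given sterile distilled water, in which both drugs were also dissolved. CAF rats were given caffeine at 120 mg/kg, DEX rats dextromethorphan hydrobromide monohydrate at 100 mg/kg, and CAF+DEX rats both drugs at those doses. Liver was taken 1 h after the last dose, so each group is a single dose at a single time. Only 1 dose of each drug was used, so additivity could be judged at that pair of doses alone. A library could be placed in its group but could not be tied to a particular rat, so the spread described here is that between libraries, which may be partly technical.

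Mature microRNAs are short RNAs cut from a hairpin precursor, and they repress messenger RNAs that pair with the seed, the bases at positions 2 to 8 of the microRNA. Liver holds a few very abundant hepatocyte microRNAs together with those of blood, endothelial, stellate and bile duct cells. Caffeine blocks adenosine receptors, and dextromethorphan is a cough suppressant acting on NMDA and sigma receptors. Both are cleared by cytochrome P450 enzymes of the liver. The deposited values count reads on the annotated microRNA gene, in FPKM (reads scaled to the length of the gene and to all reads on the listed features), and do not separate the arms of a hairpin.

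The interaction was defined on the log2 scale as the difference between CAF+DEX and CAF minus the difference between DEX and Control. A value of 0 means that the combination stood at the sum of the single-drug differences. A positive value means that it stood above that sum, and a negative value below it, whatever the direction of each drug alone. The mature sequences of the microRNAs on which the results turn are printed from RefSeq (build GRCr8), in lower case with the seed in capitals, to show which of them could share targets. They were matched by gene symbol. Of 293 features tested 252 had an entry, as did 13 of the 16 with the smallest p described below. Mir320a, rno-mir-335 and Mir29b-3 are named only.
rno-miR-136-3p: cAUCAUCGucucaaaugagucu
rno-miR-218a-5p: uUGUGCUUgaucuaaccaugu
rno-miR-190b-5p: uGAUAUGUuugauauuagguu
rno-miR-190a-5p: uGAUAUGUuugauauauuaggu
rno-miR-34c-5p: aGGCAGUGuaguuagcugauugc
rno-miR-34a-5p: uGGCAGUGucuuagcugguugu
rno-miR-34b-5p: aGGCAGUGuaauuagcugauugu
rno-miR-449a-5p: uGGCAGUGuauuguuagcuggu
rno-miR-155-5p: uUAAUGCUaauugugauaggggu
rno-miR-29b-3p: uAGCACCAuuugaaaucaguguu
rno-miR-339-5p: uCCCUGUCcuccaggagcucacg
rno-miR-132-3p: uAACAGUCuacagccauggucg
The seed of miR-190b is also that of miR-190a, and the seed of miR-34c is also that of miR-34a, miR-34b and miR-449a, so those genes are compared below.

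Depth was 2863572 to 3418568 reads per library on the listed features, and 258 to 273 features were above 0. Mir192, a hepatocyte microRNA, had the highest mean. The 7 hepatocyte microRNAs of the marker list that were matched by symbol took 26.2 to 29.2% of reads across all libraries. That share leaves out miR-101b, also on the list, whose gene Mir101-2 averaged 321700 reads but was not matched by symbol. The 7 markers thus matched the tissue label in each group.

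No microRNA departed from the sum of the single-drug differences by a margin that survived correction. In limma, 0 of 293 features passed an adjusted p of 0.05 (0% called), and 16 had an unadjusted p under 0.05, or 5.46% of those tested. The smallest limma adjusted p was 0.844. The test by limma-voom on recovered reads called 0 as well, with 14 at an unadjusted p under 0.05. Without DEX library 4 the count was 1, Mir218-2. Of the 4 differences that make up the interaction, CAF against Control had 2 features called in limma (0.683%), Mir142 and Mir146a, both lower. Neither was called with no filter on low values. Leaving out 1 library at a time, the count was 0 when that library was Control 1 or 3, or CAF 2 or 5. It was 10 when CAF 1 was left out, 5 for Control 4, 4 for CAF+DEX 1 and 1 for DEX 2. DEX against Control, CAF+DEX against CAF and CAF+DEX against DEX had 0 called in limma (0%), with 13, 15 and 23 features at an unadjusted p under 0.05 (4.44%, 5.12% and 7.85%) and 0 called by limma-voom. All 5 comparisons use the same 12 libraries, and those that share a group are not independent.

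The precision of the interaction followed depth. For the 91 features averaging at least 1000 reads per library, the median standard error was 0.11 and the median 95% interval reached 0.24 to either side on the log2 scale. In 90 of these 91 the 95% interval lay wholly between a halving and a doubling, and in 83 it lay within 1.5-fold either way. Mir200b, an epithelial microRNA, was the exception at the doubling limit, at -0.20 with an interval of -1.31 to 0.90. For the 44 features with 100 to 1000 reads the median standard error was 0.21, and 36 intervals lay within a doubling. It was 0.41 for the 52 features with 10 to 100 reads, of which 15 lay within a doubling. Of the 106 features under 10 reads, 2 had such an interval, so in rare microRNAs a 2-fold departure could mostly not be excluded. Interactions over 1 in size on the log2 scale numbered 27, of which 20 were in features under 10 reads and 0 in features of at least 1000 reads.

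**Figure D1:**
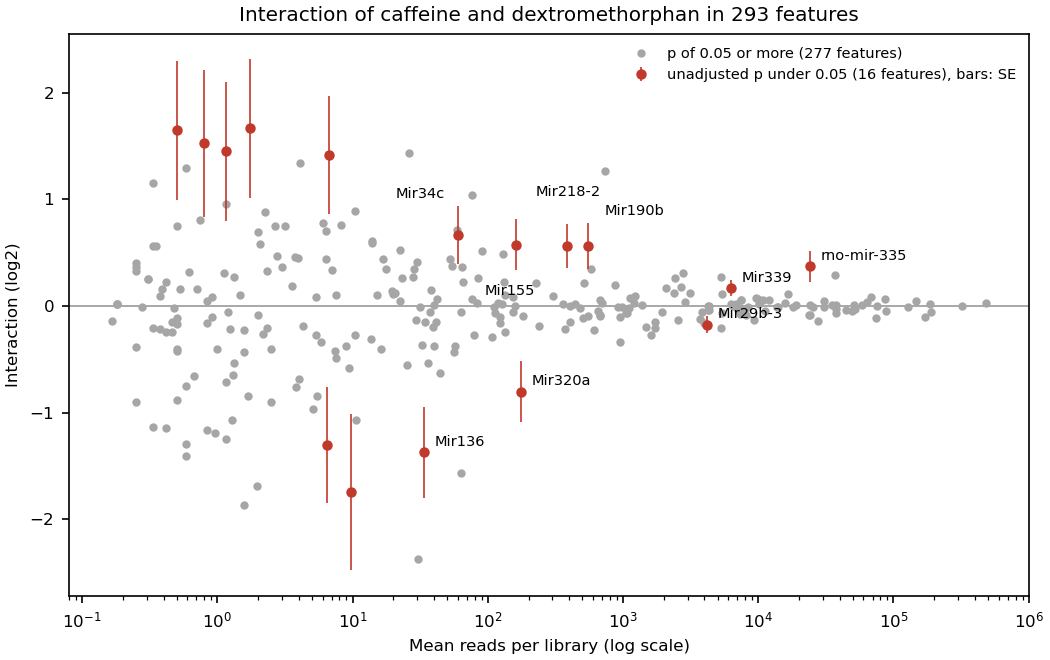
Interaction of each of 293 features on the log2 scale against its mean reads per library on a log axis. Red points are the 16 features with an unadjusted limma p under 0.05 with their standard errors, and the 9 of them with at least 10 reads are named. The cloud narrows with depth, and 0 of the 91 features of at least 1000 reads lies beyond 1 on the log2 scale.

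The most abundant microRNAs stood close to the sum of the single-drug differences. Mir192 had an interaction of 0.03 (95% interval -0.16 to 0.22), and Mir101-2 of 0.00 (-0.19 to 0.18). Mirlet7f2, of the let-7 family that acts in differentiation, had -0.06 (-0.23 to 0.11), and Mir26b had 0.02 (-0.13 to 0.17). Mir148a, which represses the transcript of the nuclear receptor PXR, had 0.05 (-0.21 to 0.30), and Mir21, induced in liver injury, had -0.11 (-0.45 to 0.24). These are the 6 most abundant features, and each interval leaves out a 1.5-fold departure.

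The interaction took a small part of the variation between libraries. With 11 degrees of freedom among 12 libraries, each of caffeine, dextromethorphan and their interaction holds 1, or 9.09%, and the spread within groups holds 72.7%. Over the 293 features the interaction took a mean of 7.91% of the sum of squares of log2 values, dextromethorphan 9.15%, caffeine 14.0% and the spread within groups 68.9%. Among the 91 features of at least 1000 reads the mean shares were 4.93% for the interaction, 11.3% for dextromethorphan and 19.4% for caffeine. In these abundant microRNAs the interaction share was thus below 9.09% and the caffeine share above it. No test was run on these shares, since features of 1 library are not independent.

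The caffeine differences without and with dextromethorphan were correlated across the abundant microRNAs, which does not make them equal in size. The differences CAF minus Control and CAF+DEX minus DEX have no library in common. Across the 91 features they had a Pearson r of 0.72 and a Spearman rho of 0.66, with the same sign in 67. Leaving out the 5 blood cell microRNAs of the leukocyte and erythroid lists that are this abundant gave r = 0.67 and rho = 0.62 over 86 features. The dextromethorphan differences without and with caffeine, DEX minus Control and CAF+DEX minus CAF, also share no library. Their r was 0.32 and rho 0.35 over 91 features, with the same sign in 58, and r was 0.47 without those 5. Below 1000 reads a like correlation was not seen. In the 44 features with 100 to 1000 reads r was 0.03 for caffeine and -0.37 for dextromethorphan (rho 0.18 and -0.18). In the 52 features with 10 to 100 reads r was 0.08 and 0.04. It was -0.07 for caffeine and -0.13 for dextromethorphan in the 106 features under 10 reads, and 0.02 and -0.08 over all 293. These correlations are across features, which share libraries and, for copies of a microRNA, reads, and they are given as a description.

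**Figure D2:**
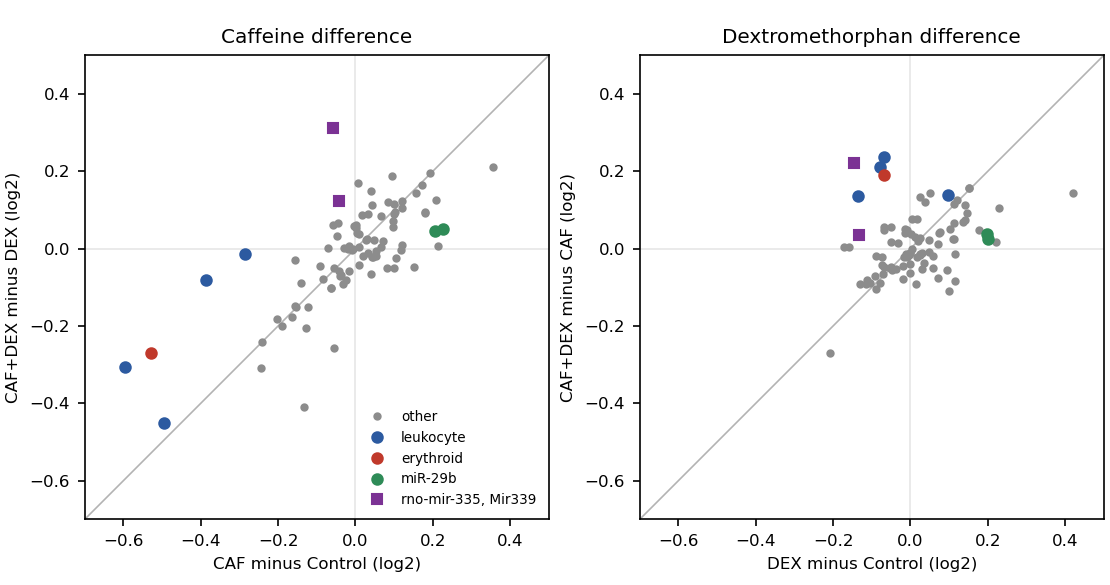
Log2 difference for 1 drug without the other drug (x axis) against the same difference with it (y axis), for 91 features of at least 1000 reads. The left panel shows caffeine (r = 0.72) and the right panel dextromethorphan (r = 0.32). Points on the diagonal have an interaction of 0, and rno-mir-335 and the leukocyte members lie above it while both miR-29b copies lie below.

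The 16 features with an unadjusted p under 0.05 are described next as the largest departures relative to their error. They were picked by that p, and the shapes that follow are fixed in part by the choice, since the interaction is built from the same 4 group means. None passed in limma, where their adjusted p ran from 0.844 to 0.850. In 5 the interaction was negative and each drug alone gave a level above Control, and in 11 it was positive with each drug alone at or below Control. Over all features this held for 81 of 152 negative and 71 of 141 positive interactions. The dextromethorphan difference had opposite signs without and with caffeine in 14 of the 16, against 48.5% of all features. All 3 CAF+DEX libraries lay on one side of the sum in 16 of the 16, against 42% of all. Both counts follow from how the 16 were chosen. Of the 16, 7 averaged under 10 reads per library and 9 at least 10.

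**Figure D3:**
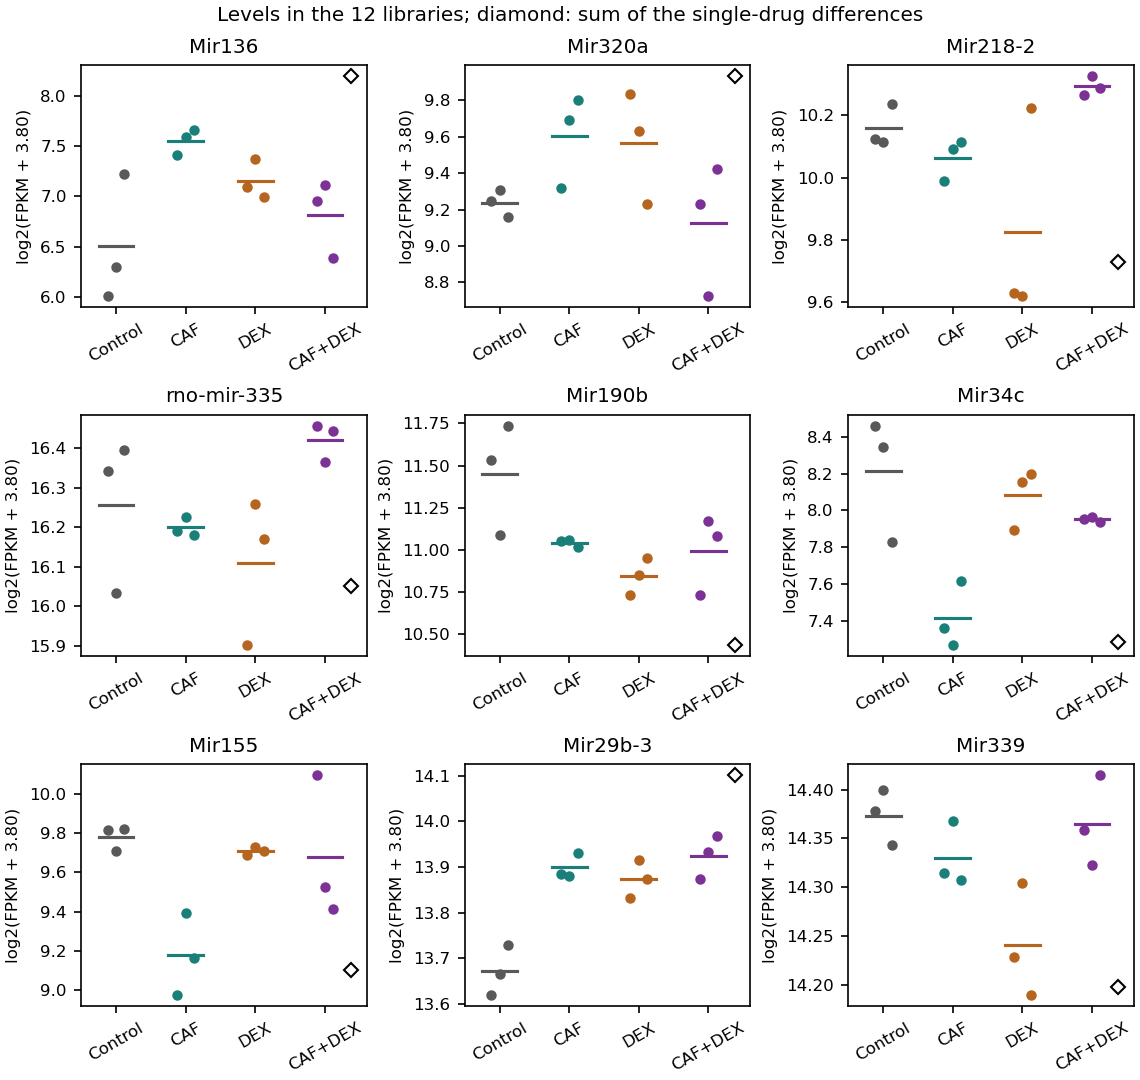
Level of 9 microRNAs in each of the 12 libraries, as log2(FPKM + 3.80), with a bar at the mean of each group of 3 libraries. The open diamond marks the sum of the single-drug differences, and for all 9 the 3 CAF+DEX libraries lie on the same side of it.

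Mir136 and Mir320a were higher in the mean after each drug alone and near Control after both. Mir136, a microRNA of the imprinted Dlk1-Dio3 cluster (ENSRNOG00000036493, chromosome 6, 128549096 to 128549177, rn7), stood at 60.8, 74.9 and 145 FPKM in Control. CAF had 166, 188 and 199 FPKM, DEX 133, 162 and 123, and CAF+DEX 120.19, 135 and 79.8. All 3 CAF libraries lay above all Control and all CAF+DEX libraries, while CAF+DEX overlapped Control. The sum of the single-drug differences came to 289 FPKM and the CAF+DEX geometric mean to 109 FPKM, which gave an interaction of -1.37 (SE 0.43, limma adjusted p = 0.844). It averaged 34.0 reads per library.

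Mir320a (ENSRNOG00000035629, chromosome 15, 45516392 to 45516473) stood at 605, 629 and 568 FPKM in Control and at 635, 823 and 889 in CAF. DEX had 909.9, 789 and 596 FPKM and CAF+DEX 597, 420.1 and 682. The CAF libraries were above all Control libraries, DEX overlapped Control through its library 4, and CAF+DEX overlapped every other group. Its interaction was -0.80 (SE 0.29, limma adjusted p = 0.844), from a sum of 972 FPKM against an observed 555. Without CAF+DEX library 2 it was -0.60.

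Both miR-29b genes, whose mature form represses collagen transcripts, stood at one level after either drug and after both. Mir29b-3 (ENSRNOG00000035637, chromosome 13, 106570367 to 106570456) had 12591, 12996 and 13572 FPKM in Control, all below the other 9 libraries. CAF had 15126, 15087 and 15622 FPKM, DEX 14578, 15443 and 15005, and CAF+DEX 15017, 15625 and 16027. The 3 treated groups overlapped each other. The log2 difference was 0.23 for caffeine alone, 0.20 for dextromethorphan alone and 0.03 for dextromethorphan added to caffeine, so the interaction was -0.18 (SE 0.08, limma adjusted p = 0.850). With quantile normalization it was -0.07. Mir29b1 (ENSRNOG00000035463, chromosome 4, 59650986 to 59651067) had -0.16 (SE 0.08), or -0.08 with quantile normalization, with Control at 13215 to 14163 FPKM and the treated libraries at 15260 to 16626. The copies share reads of the mature sequence printed above and give 1 signal. Libraries of DEX and Control did not overlap in 10.9% of all features, and those of CAF and Control in 14.7%. For CAF+DEX the share was 7.17% against CAF and 13.7% against DEX. The share of features with 1 group apart from the other 9 libraries, described here for several microRNAs, was not counted.

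Mir218-2, rno-mir-335 and Mir339 were higher in CAF+DEX than the sum of the single-drug differences, with both singles below Control in the mean. Mir218-2, which lies in an intron of the axon guidance gene Slit3 (ENSRNOG00000035481, chromosome 10, 20068451 to 20068560), stood at 1111, 1105 and 1203 FPKM in Control. CAF had 1013, 1087 and 1103 FPKM, DEX 788, 784 and 1190, and CAF+DEX 1227, 1279 and 1247. All 3 CAF+DEX libraries lay above the other 9, and DEX library 4 lay among the Control libraries while the other DEX libraries lay far below. It was the only feature (0.341% of 293) in which no CAF library overlapped Control in one direction and no CAF+DEX library overlapped DEX in the other. The highest CAF library, at 1103 FPKM, nearly met the lowest Control library, at 1105 FPKM. Its interaction was 0.56 (SE 0.20, limma adjusted p = 0.844). It was 0.46 without DEX library 2 and 0.76 without DEX library 4 (limma adjusted p = 0.0447). The only call thus rests on leaving out the DEX library that lay among Control.

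The most abundant of the 16 was rno-mir-335 (ENSRNOG00000068719, chromosome 4, 59357769 to 59357866), which lies in an intron of the imprinted gene Mest and averaged 24312 reads. It stood at 83027, 67040 and 86263 FPKM in Control and at 74778, 76639 and 74313 in CAF. DEX had 61200, 78403 and 73699 FPKM and CAF+DEX 89940, 84382 and 89079. CAF+DEX lay above all CAF and all DEX libraries but overlapped Control. The interaction was 0.37 (SE 0.14, limma adjusted p = 0.844), and it was 0.27 without DEX library 1 and 0.24 with quantile normalization.

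Mir339 (ENSRNOG00000035479, chromosome 12, 15277546 to 15277641) had 21282, 21603 and 20776 FPKM in Control and 20378, 21132 and 20264 in CAF. DEX had 19196, 20229 and 18684 FPKM and CAF+DEX 21003, 20482 and 21838. All DEX libraries lay below the other 9, and the 3 other groups overlapped each other. Its interaction was among the smallest of the 16, at 0.17 (SE 0.08, limma adjusted p = 0.850). With quantile normalization it was 0.29.

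Mir190b (ENSRNOG00000041245, chromosome 2, 175514800 to 175514877) was below Control by a like amount after each drug and after both. It stood at 2966, 2170 and 3409 FPKM in Control and at 2122, 2124 and 2066 in CAF. DEX had 1700, 1846 and 1974 FPKM and CAF+DEX 1700, 2299 and 2167. All CAF and all DEX libraries lay below all Control libraries, and CAF+DEX overlapped the 3 other groups. The difference from Control was -0.41 for CAF and -0.61 for DEX, with an interaction of 0.56 (SE 0.22, limma adjusted p = 0.844). Mir190, the gene of miR-190a with the same seed, averaged 7110 reads against 547 and had an interaction of -0.04 (SE 0.08). The difference between the 2 genes was not tested.

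In Mir34c and Mir155 the CAF level was low, and CAF+DEX stood between CAF and Control or within Control. Mir34c, a target of the tumour suppressor p53 (ENSRNOG00000035478, chromosome 8, 51409726 to 51409802), had 348, 321 and 224 FPKM in Control. CAF had 161, 150.4 and 192 FPKM, DEX 234, 281 and 289.6, and CAF+DEX 244, 246 and 242. CAF lay below the other 9 libraries and CAF+DEX within the range of Control. CAF minus Control was -0.79 on the log2 scale and CAF+DEX minus DEX was -0.13, an interaction of 0.66 (SE 0.27, limma adjusted p = 0.844). Of the genes with its seed, Mir34b, which lies beside it, had 0.11 (SE 0.41), Mir34a -0.06 (SE 0.25) and Mir449a -0.15 (SE 0.37). Their caffeine differences were -0.67, -0.24 and -0.52 without dextromethorphan and -0.56, -0.31 and -0.67 with it.

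Mir155, induced in activated leukocytes (ENSRNOG00000050840, chromosome 11, 23774654 to 23774718), had 897, 833 and 902 FPKM in Control. CAF had 499.6, 668 and 569 FPKM, DEX 821, 846 and 832, and CAF+DEX 1091, 733 and 678. CAF lay below the other 9 libraries, and the CAF+DEX libraries spread from below DEX to above Control. The interaction was 0.58 (SE 0.24, limma adjusted p = 0.844), and it was 0.37 without CAF+DEX library 1, the highest of the 12.

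The other 7 of the 16 averaged under 10 reads, and single reads move them. Mir132, induced by the factor CREB, had 8, 6 and 6 reads in Control, 1, 4 and 4 in CAF, 5, 6 and 9 in DEX and 15, 7 and 9 in CAF+DEX. All CAF libraries lay below all Control and all CAF+DEX libraries, and its interaction was 1.42 (SE 0.55). Mir212, which shares its cluster and seed, averaged 0.92 reads and is given no fold. Mir874 had 3, 10 and 3 reads in Control, 6, 11 and 10 in CAF, 6, 8 and 6 in DEX and 6, 5 and 4 in CAF+DEX, with an interaction of -1.30 (SE 0.55). Mir3585 had 1, 13 and 5, then 17, 13 and 17, then 8, 9 and 9, and then 13, 5 and 7 reads in the same order of groups. Its interaction was -1.75 (SE 0.73), and -1.09 without Control library 1. Mir494, of the imprinted cluster, had 3, 3 and 4 reads in Control, 2, 2 and 0 in CAF, 1, 0 and 1 in DEX and 1, 2 and 2 in CAF+DEX. Its interaction of 1.66 (SE 0.65) ranged from 0.71 to 2.86 over the other settings of pseudocount, filter, scaling and test. Mir494 averaged over 3 reads in Control alone, and a higher Control also raises the interaction. Mir92b, with 0, 1 and 3 reads in Control, 0 in all CAF and all DEX libraries and 1, 0 and 1 in CAF+DEX, is given no fold, nor are Mir509 and Mir3541.

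Groups of microRNAs were then described by their cell type or family. Over all 293 features 48.1% of interactions were positive and the median was -0.01, and these stand beside each list. No member of any list passed in limma.

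In all 6 leukocyte microRNAs the interaction was above 0, although that of Mir146a was below 0 without Control library 3 or CAF+DEX library 2 and with quantile normalization. The median was 0.28, with 1 member at an unadjusted p under 0.05 (against 5.46% of all features) and 0 called. Summed over the list, Control libraries gave 2.63 to 2.99% of reads and DEX libraries 2.59 to 2.97%. CAF libraries gave 1.75 to 2.15% and CAF+DEX libraries 1.96 to 2.40%. The caffeine groups lay below the groups without caffeine, and CAF and CAF+DEX overlapped. In bulk liver, fewer cells of a type and less RNA per cell cannot be told apart. The list median was -0.50 for CAF minus Control and -0.19 for CAF+DEX minus DEX, and -0.07 for DEX minus Control and 0.19 for CAF+DEX minus CAF. Leaving out CAF+DEX library 2 gave a median interaction of 0.17.

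The members differed in how near they lay to the sum. Mir142, of all blood lineages, had 121229, 128941 and 118051 FPKM in Control and 93568, 80559 and 70813 in CAF, against 107645, 135052 and 107586 in DEX and 83044, 102689 and 97311 in CAF+DEX. All caffeine libraries lay below all libraries without caffeine, and the interaction was 0.29 (SE 0.16), or 0.19 without CAF library 5. Mir146a, a brake on innate immune signalling, had 105799, 129528 and 105763 FPKM in Control and 87940, 76047 and 77620 in CAF, against 127851, 119513 and 116049 in DEX and 80688, 98002 and 87801 in CAF+DEX. It too was separated by caffeine in all 12 libraries, but with an interaction of 0.04 (SE 0.13, 95% interval -0.25 to 0.33), or -0.05 without Control library 3, -0.03 without CAF+DEX library 2 and -0.02 with quantile normalization. Over all features, CAF and Control did not overlap in 14.7%, and CAF+DEX and DEX in 13.7%. The share separated by caffeine in all 12 libraries was not counted. Mir223, of neutrophils and monocytes, had an interaction of 0.27 (SE 0.14), and 0.17 without CAF+DEX library 2. Mir150, of mature lymphocytes, had 0.30 (SE 0.25), and 0.12 without that library. Mir342 had 0.19 (SE 0.17), and 0.08 without CAF library 5.

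The 3 erythroid microRNAs, which mark red blood cells and so residual blood in the tissue, had interactions on the same side of 0 as the leukocyte list. The 3 values had a median of 0.26, namely 0.48 (SE 0.31) for rno-mir-486, 0.26 (SE 0.28) for Mir144 and 0.21 (SE 0.27) for Mir451a. Summed, they took 0.101 to 0.121% of reads in Control libraries and 0.0906 to 0.122% in DEX libraries. The CAF libraries gave 0.0602 to 0.114% and the CAF+DEX libraries 0.0847 to 0.0940%, so all groups overlapped but CAF+DEX and Control. CAF was uneven, since Mir144 had 10978 FPKM in its library 1 and 6079 and 5791 in the other CAF libraries. Leaving out CAF library 1 raised the median to 0.56. Leaving out CAF library 5, CAF library 2 or DEX library 1 gave 0.09, 0.13 and 0.16. The part of blood content in the leukocyte values was not tested.

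**Figure D4:**
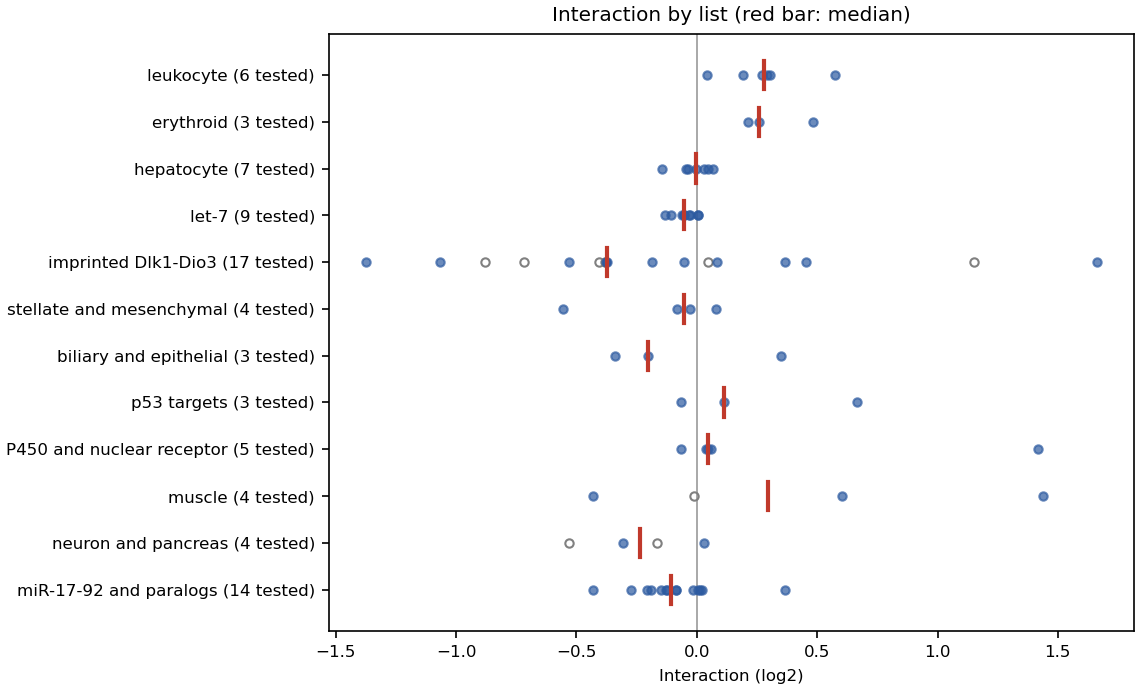
Interaction on the log2 scale of each tested member of 12 lists, with a red bar at the list median. Filled points average over 3 reads in at least 1 group and open points do not. The 6 leukocyte and 3 erythroid members all lie above 0, and the 7 hepatocyte and 9 let-7 members lie close to it.

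The 7 hepatocyte microRNAs matched by symbol had a median interaction of 0.00, with 3 positive and 4 negative and a range of -0.15 to 0.07. Mir802, which acts in glucose handling, was the lowest at -0.15 (SE 0.14), and -0.03 without CAF+DEX library 1. Mir101a was the highest at 0.07 (SE 0.09). The 9 let-7 members had a median of -0.05 (0.02 without CAF+DEX library 5) with 7 negative, led by Mirlet7d at -0.13 (SE 0.08). Their dextromethorphan difference had a median of 0.12 without caffeine and 0.05 with it, and it was above 0 in 9 of 9 both times. The 14 members of miR-17-92 and its paralog clusters, which promote proliferation, had a median of -0.11 with 10 negative. Without single libraries this median ran from -0.18 (CAF+DEX library 5 left out) to -0.05 (CAF+DEX library 2), and it was also nearer 0 without Control library 4, CAF library 5, DEX library 1 or CAF+DEX library 1. Mir19a had -0.21 (SE 0.13), and -0.32 without CAF+DEX library 5. Mir18a had -0.43 (SE 0.30), and -0.22 with quantile normalization. Copies in both families share reads, so members are not independent.

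The imprinted Dlk1-Dio3 cluster spread widely. Of its 32 listed members 17 were tested and 11 averaged over 3 reads in some group. The median interaction was -0.37 with 11 negative and 6 positive. The 2 members with an unadjusted p under 0.05 had opposite signs, Mir136 at -1.37 and Mir494 at 1.66. Mir494 averaged 1.75 reads and was over 3 reads in Control alone, so its sign is not weighed against that of Mir136. The median came to 0.18 when CAF+DEX library 5 was left out and to 0.07 when CAF library 2 was. It came to -0.02 with DEX library 2 out, -0.04 with Control library 1 out and -0.21 with CAF+DEX library 1 out. The direction of this list thus rested on single libraries.

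MicroRNAs known to repress P450 or nuclear receptor transcripts formed another list. Enzymes of the P450 family clear both drugs, but neither these transcripts nor the enzymes were measured here. The 5 tested members had a median of 0.05, with 4 positive, and apart from Mir132 at 1.42 they lay between -0.06 and 0.06. Mir24-2, which represses HNF4A, had 0.06 (SE 0.08, 95% interval -0.11 to 0.22). The 3 p53 targets had a median of 0.11, and Mir34c was the only one at an unadjusted p under 0.05. Without single libraries this median ran from -0.01 (CAF library 2 left out) to 0.38 (Control library 4 left out).

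Markers of other cells gave list medians of either sign, and leaving out single libraries turned the stellate, biliary and muscle medians. The feature listed for endothelium by its symbol, Mir126a, has miR-126b as its RefSeq mature form, so its interaction of 0.10 (SE 0.45) is not that of the endothelial marker miR-126a. The 4 stellate and mesenchymal members had a median of -0.06 (-0.17 to 0.04 without single libraries), with Mir143 at 0.08 (SE 0.19) and Mir214 at -0.56 (SE 0.49). Mir214 ran from -0.94 without DEX library 2 to -0.33 without DEX library 4, and Mir143 from -0.08 without CAF library 1 to 0.22 without CAF+DEX library 5. The 3 biliary and epithelial members had -0.20 (-0.53 to 0.14), with Mir141 at 0.35 (SE 0.29) and Mir429 at -0.34 (SE 0.39). Mir141 ran from 0.16 without CAF+DEX library 2 to 0.56 without DEX library 4, and was 0.12 with quantile normalization. Mir429 ran from -0.63 without CAF+DEX library 2 to -0.05 without CAF+DEX library 5. The 4 neuron and pancreas members had -0.24 (-0.40 to -0.01), with Mir216a and Mir217 under the floor for a fold. Both of these still count in the median, and Mir375, averaging 118 reads, had 0.03 (SE 0.34). The feature with the symbol Mir9 has miR-7b as its RefSeq mature form, and so is a miR-7 gene of that list and not miR-9. Its interaction was -0.31 (SE 0.40), from -0.53 without CAF+DEX library 2 to -0.16 without Control library 1. That list also named miR-7a, which the matching by symbol left out of the median. By RefSeq mature form its genes are Mir7-1, averaging 10056 reads, and Mir8, averaging 8435. They had 0.02 (SE 0.14) and -0.01 (SE 0.14), and both carry the same mature sequence. The 4 muscle members matched by symbol had 0.30 (-0.04 to 0.66), from Mir133a-2 at 1.44 (SE 0.81) and Mir206 at 0.60 (SE 0.86) down to Mir208b at -0.43 (SE 0.67). Mir133b, the remaining member, averaged 0.28 reads and is under the floor for a fold, yet it counts in this median. The list also named miR-1, which the matching by symbol left out of this median. Mir1b, whose mature form has the seed of miR-206, averaged 738 reads, more than any of the 4, and had 1.27 (SE 0.61). Mir133a-2 had 0.82 without CAF library 1 and 0.91 without Control library 1, and Mir206 ran from -0.0011 without CAF library 2 to 1.07 without DEX library 1. Muscle reads were uneven within groups, with Mir133a-2 at 307, 96.7 and 103 FPKM in Control and 22.7, 99.1 and 84.7 in CAF.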

How the data were processed

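Small RNA libraries were made from total RNA of liver with a QIAseq kit whose primers carry unique molecular indices (labels' protocols). The sources used here do not say whether reads were collapsed by these. The submitters' processing notes name cutadapt 3.7, STAR 2.7.11b, featureCounts of Subread 2.0.6 and build rn7. The authors deposited FPKM for 444 features, scaled so that FPKM times length has the same total in each of the 12 columns. Reads were recovered from FPKM as multiples of 0.01 read, with 50.5 to 58.3% of features above 0 at whole reads, and give the depth; they need not be independent molecules.

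The 293 features above 0 in at least 3 libraries entered 1 limma-trend fit (limma 3.58.1, R 4.3.3) of 4 group means on log2(FPKM + 3.80), the pseudocount being the 10th percentile of all values above 0. Fold changes on this scale understate changes of rare features. P-values were adjusted by Benjamini-Hochberg over the 293 features, with a threshold of 0.05. No fold is given at or under 3 mean reads in all groups. Library numbers are those of the column headers.

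Named features were those with an unadjusted interaction p under 0.05 (up to 24), all leukocyte, erythroid and miR-29 members, the 2 smallest p of each other list and the 6 most abundant features; Mir142, Mir146a and Mir200b, and members added to complete a list or seed family, are named after their values were seen. The members and lists were chosen with earlier results of these data known.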

Additional observations from a re-analysis of the deposited data

How the results depend on the processing

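Each count and each of the 43 named interactions given a fold was recomputed under 8 other settings, with additivity taken on the linear FPKM scale, and without each of the 12 libraries in turn. The interaction count was 0 under all 8 settings and 0 to 1 without single libraries (Mir218-2 without DEX library 4). The count for DEX against Control was 0 to 1 (Mir190b without Control library 3), that for CAF+DEX against CAF was 0 throughout, that for CAF against Control was 0 to 10, and that for CAF+DEX against DEX was 0 to 1 (Mir146a without Control library 3, Mir218-2 without DEX library 4). With no filter CAF against Control gave 0 features, where more features were tested, and with quantile normalization it gave 4 and CAF+DEX against DEX gave 1; the cause was not tested. No paired analysis was possible because the table's columns could be matched to groups but not to the numbered sample titles. Of the 43 interactions 33 kept their sign throughout, and those of Mirlet7f2 and Mir192 were 0 with quantile normalization. That scaling gives each rank the same value in every library, so a feature of constant rank comes to 0. Quantile normalization reversed Mir146a to -0.019, Mir26b to -0.079 and Mir148a to -0.025, median-of-ratios scaling turned Mir101-2 to 0.0012, and the linear scale turned Mir126a to -1.79 FPKM. Without single libraries the sign changed within -0.055 to 0.11 for Mir146a, -0.14 to 0.36 for Mir126a, -0.083 to 0.22 for Mir143, -0.045 to 0.38 for Mir34b, -0.0011 to 1.07 for Mir206, -0.027 to 0.072 for Mir192, -0.048 to 0.031 for Mir101-2, -0.0045 to 0.051 for Mir26b and -0.059 to 0.12 for Mir148a; the cause was not tested. Standard errors were largest in features under 10 reads; counting error and the spread between libraries were not separated.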
